A study of Mus musculus with 9 samples.

Results

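MicroRNA genes outside the miR-302 cluster were described in mouse embryonic stem cells (ESCs) and in epiblast stem cells (EpiSCs) under 2 culture conditions. They were taken as all genes with a single annotated symbol that starts with Mir and a digit, or with Mirlet7, and the 5 genes of the miR-302 cluster were left out. This gave 295 of the 19938 genes measured, namely 291 microRNA genes and 4 host transcripts that carry a microRNA name (Mir17hg, Mir100hg, Mir99ahg and Mir670hg). By RefSeq gene order 147 members lay in 46 genomic clusters, with neighbours at most 10 kb apart, and 148 stood alone. Another 61 probe sets name a microRNA gene together with other genes. They are outside this selection, and Mir92-1 and Mir429 are among the genes they name. The miR-290 to miR-295 cluster and Mir18b were not analysed here.

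MicroRNAs are short RNAs that bind matching sites in messenger RNAs and lower their translation or stability. Each is cut from the hairpin of a longer primary transcript, first in the nucleus by Drosha with Dgcr8 and then in the cytoplasm by Dicer, and 1 strand is loaded onto an Argonaute protein. Many microRNA genes sit in introns of a host gene or share 1 primary transcript with their neighbours, and the bases next to the 5′ end, called the seed, do most of the target pairing. In pluripotent cells the miR-17 type clusters are known to favour proliferation, and let-7 microRNAs accompany differentiation. The values below come from total RNA purified on columns, and how much of a signal came from mature strands was not measured.

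The 3 groups had 3 arrays each. The ESCs were of mouse strain 129 and were kept in 2i, which commonly means the GSK3 inhibitor CHIR99021 with the MEK inhibitor PD0325901. Both EpiSC groups were of strain CD1, 1 kept in CHIR99021 with XAV939, a tankyrase inhibitor (CHIR/XAV EpiSCs), and the other in the growth factors FGF2 and activin (FGF2/activin EpiSCs). All media held 10% fetal bovine serum. The labels list the doses for all samples together, as 3 µM CHIR99021, 1 µM PD0325901, 2 µM XAV939, and 10 ng/ml each of FGF2 and activin. Strain and cell type cannot be told apart in the comparisons with ESCs. Any difference in cell line or sex between the EpiSC groups cannot be told apart from the medium in their comparison. Separate cultures are not stated for the arrays of a group, and the p-values therefore rest on array-to-array spread that could be purely technical.

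All 7 naive ESC markers were called lower and all 5 primed epiblast markers higher in both EpiSC groups, and of the shared pluripotency markers Pou5f1 was higher and Sox2 and Nanog lower in both. The rise of the primed marker Lef1 in FGF2/activin EpiSCs (0.26) was not called after quantile normalization (0.13). Of 9 fibroblast or feeder markers, 1 was called higher in CHIR/XAV EpiSCs, Thy1 (1.77, to a mean of 7.21), and 4 in FGF2/activin EpiSCs. Pdgfrb was called lower in both (-0.21 and -0.72), the former not after quantile normalization (-0.16). The summed log2 level of the 9 markers was 46.2 to 46.4 in ESCs, 47.7 to 48.4 in CHIR/XAV and 46.6 to 46.8 in FGF2/activin EpiSCs. Of the lineage markers, Nes rose by 2.38 and 3.66, Map2 by 0.96 and 1.75 and Hand1 by 0.51 and 1.11. Pax6 fell in both groups. In FGF2/activin EpiSCs Gata6 rose by 0.50, and Mixl1 (-0.41) and Sox17 (-0.23) were called lower, Sox17 not after quantile normalization (-0.09). The part of these markers in the results was not tested. Values are log2 expression after robust multi-array averaging (RMA), with array medians between 5.57 and 5.65. MicroRNA genes were dim: 200 of the 295 lay among the dimmest 40% of all genes, below a mean of 5.28 over the 9 arrays. No detection calls were used here, so the values do not say which of the dim genes were above background. At this end the groups differed as a whole. The first quartile of an array was 4.83 to 4.90 in ESCs, 4.77 to 4.80 in CHIR/XAV EpiSCs and 4.68 to 4.74 in FGF2/activin EpiSCs. Fewer cells of a type and less RNA per cell cannot be told apart in such samples.

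Sequences of the members on which the results turn are from RefSeq (GRCm38.p6) and read 5′ to 3′, with the seed (bases 2 to 8) in capitals. The first set belongs to the 8 microRNA genes with the largest rises in EpiSCs, which all lie in 1 stretch of chromosome 12.
miR-382-5p: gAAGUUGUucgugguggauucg
miR-377-3p: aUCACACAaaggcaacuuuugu
miR-134-5p: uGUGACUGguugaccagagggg
miR-300-3p: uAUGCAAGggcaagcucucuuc
miR-380-3p: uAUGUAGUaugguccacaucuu
miR-485-3p: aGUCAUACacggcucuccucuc
miR-329-3p: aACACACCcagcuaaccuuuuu
miR-323-3p: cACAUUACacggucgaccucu
These seeds differ from one another. Over the 40 members of that chromosome 12 interval, RefSeq lists 76 mature strands with 74 distinct seeds, and just 2 seeds occur in more than 1 strand. One is shared by miR-379-3p and miR-411-3p and the other by miR-376b-5p and miR-376c-5p.

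The second set shows members of the 3 miR-17 type clusters, which are related in sequence and lie on different chromosomes.
miR-17-5p: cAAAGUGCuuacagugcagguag
miR-106a-5p: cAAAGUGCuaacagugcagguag
miR-20b-5p: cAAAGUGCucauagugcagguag
miR-106b-5p: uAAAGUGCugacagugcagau
miR-92a-3p: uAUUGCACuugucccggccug
miR-363-3p: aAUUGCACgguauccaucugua
miR-25-3p: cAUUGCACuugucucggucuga
The first seed occurs in 6 of the 23 mature strands of these clusters and the seed of miR-363-3p in 3 of them, so that 13 genes hold 12 distinct seeds. In CHIR/XAV EpiSCs the genes that share a seed did not share their direction, as described below. In FGF2/activin EpiSCs the 3 genes with the seed of miR-363-3p, Mir25, Mir363 and Mir92-2, were all called lower. Of the 6 genes with the first seed, Mir106a and Mir106b were called there as deposited, both lower, beside 33.5% of all genes called lower. Under quantile normalization both lost the call (-0.22 and -0.10), and Mir20a, with the same seed, was called higher (0.33).

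Against ESCs, most microRNA genes that rose in EpiSCs lay in the chromosome 12 interval between Dlk1 and Dio3, and falls were spread over the rest of the genome. In CHIR/XAV EpiSCs 39 members were called higher and 54 lower (limma, Benjamini-Hochberg adjusted p under 0.05 over all genes). Over all genes the called shares were 24.7% higher and 22.1% lower, so the members' 39 of 295 is below the background and their 54 is close to it. The counts in FGF2/activin EpiSCs were 28 called higher and 107 lower, beside 27.8% and 33.5% of all genes. Over members of all levels, rises were thus again below the background and falls near it. Quantile normalization turned this split into 45 higher and 70 lower, beside 26.6% and 25.4% of all genes. The split in CHIR/XAV EpiSCs became 48 higher and 46 lower, beside 25.4% and 20.7%, so the balance of rises and falls depends on the scaling. The median difference of the members was -0.05 in CHIR/XAV and -0.14 in FGF2/activin EpiSCs, beside -0.03 and -0.08 over all genes. Of the 200 members among the dimmest 40% of genes, 18 were called higher and 21 lower in CHIR/XAV EpiSCs, beside 7.32% and 14.8% of all such dim genes. In FGF2/activin EpiSCs 14 of the 200 were higher and 57 lower, beside 5.79% and 40.9%. The falls of dim members were thus no more frequent than those of other dim genes, and the part of the lower first quartile in them was not tested.

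The rises and falls were divided by position. Of the 40 interval members, 32 were called higher and 0 lower in CHIR/XAV EpiSCs. Of the 255 others, 7 were higher and 54 lower. In FGF2/activin EpiSCs the interval had 22 higher and 2 lower, and the others had 6 higher and 105 lower. Without ESC replicate 1 the 6 became 3. Across both comparisons with ESCs, which share the ESC arrays, 25 members were called higher in both, of which 22 were interval members, and 44 were called lower in both. The share of all genes called alike in both was not counted, so no background stands beside these counts. Mir363 was the 1 member called in opposite directions. At 2-fold or more, 9 members were higher and 5 lower in CHIR/XAV EpiSCs, beside 5.03% and 3.30% of all genes, and all 9 were interval members. In FGF2/activin EpiSCs 6 were higher, all in the interval, and 1 lower, beside 6.66% and 3.45%.

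**Figure D1:**
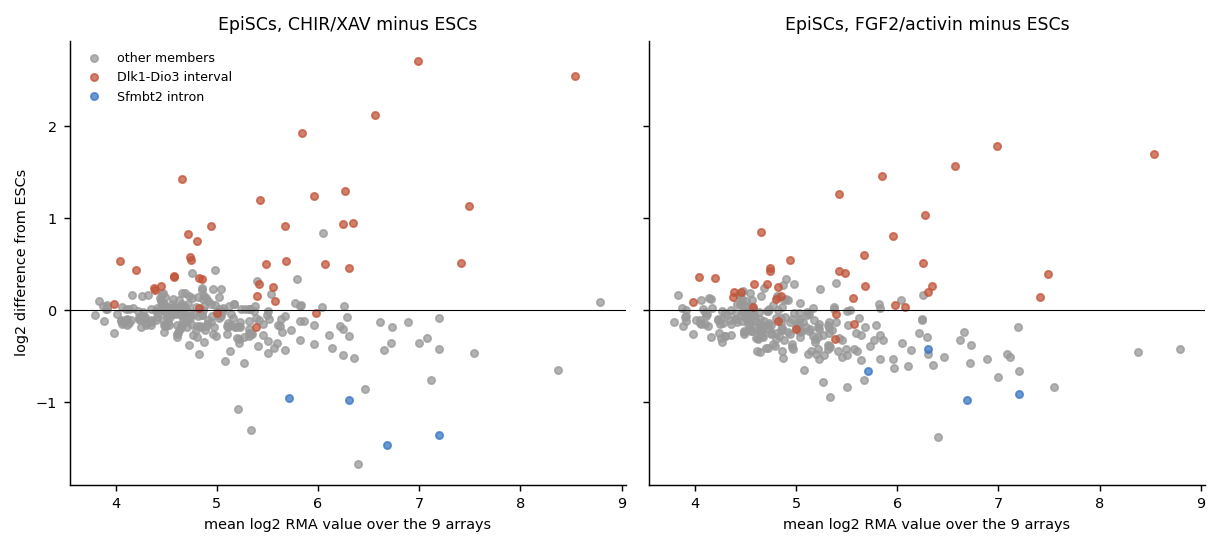
Log2 difference of each of the 295 microRNA genes from ESCs (vertical axis, log2 units) against its mean log2 RMA value over the 9 arrays (horizontal axis), for CHIR/XAV EpiSCs on the left and FGF2/activin EpiSCs on the right; points are genes. Interval genes reach up to 2.71 and 1.79, the 4 genes in the Sfmbt2 intron lie below 0 in both panels, and the points at the left are the dim genes.

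The 2 EpiSC groups also differed from each other. In CHIR/XAV EpiSCs 57 members were higher than in FGF2/activin EpiSCs and 12 were lower, beside 20.5% and 21.1% of all genes. Of the 57, 16 lay in the interval. Among the dimmest 40% of all genes 17.8% were called higher and 3.67% lower in this comparison. The 57 became 35 without CHIR/XAV replicate 1 and 36 without FGF2/activin replicate 2, and the 12 became 7 without FGF2/activin replicate 1.

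The Dlk1-Dio3 interval is an imprinted domain. Its microRNAs and the long noncoding RNAs Meg3, Rian and Mirg are transcribed from the maternal chromosome, and the protein-coding genes Dlk1, Rtl1 and Dio3 mainly from the paternal one. Its 40 members had a median difference of 0.51 in CHIR/XAV and 0.27 in FGF2/activin EpiSCs against ESCs, and of 0.22 between CHIR/XAV and FGF2/activin EpiSCs. The difference from ESCs was above 0 for 37 of the 40 in CHIR/XAV and for 35 in FGF2/activin EpiSCs. Of the 40 members 22 were brighter than the dimmest 40% of genes, and 18 of these 22 were called higher in CHIR/XAV EpiSCs and 13 in FGF2/activin EpiSCs. Of the 18 dim members, 14 and 9 were called higher.

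Mir382 had the largest rise of all members. Its values were 5.78, 5.45 and 5.24 in ESCs, 8.36, 8.56 and 7.68 in CHIR/XAV EpiSCs, and 7.52, 7.14 and 7.17 in FGF2/activin EpiSCs. The 3 groups do not overlap, and CHIR/XAV EpiSCs were highest. Mir382 rose by 2.71 (SE 0.19), or 6.55-fold, in CHIR/XAV EpiSCs (adjusted p = 2.6e-08, limma) and by 1.79, or 3.45-fold, in FGF2/activin EpiSCs (adjusted p = 1.9e-06, limma).

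Mir377, which lies within Mirg, measured 7.04, 7.43 and 6.89 in ESCs, 10.05, 9.91 and 9.06 in CHIR/XAV EpiSCs, and 8.93, 8.59 and 8.95 in FGF2/activin EpiSCs. It rose by 2.55 (SE 0.21, adjusted p = 1.5e-07, limma) and by 1.70 (adjusted p = 8.6e-06, limma), again with no overlap between groups. Mir134, reported to target messenger RNAs of pluripotency factors, measured 5.50, 5.20 and 5.32 in ESCs, 7.58, 7.59 and 7.19 in CHIR/XAV EpiSCs, and 6.98, 6.82 and 6.91 in FGF2/activin EpiSCs. It rose by 2.12 (SE 0.11) and 1.57, and CHIR/XAV EpiSCs stood above FGF2/activin EpiSCs on every array, by 0.55 (adjusted p = 0.00084, limma). Mir300 measured 4.88, 4.72 and 4.57 in ESCs, 6.77, 6.75 and 6.42 in CHIR/XAV EpiSCs, and 6.31, 6.12 and 6.10 in FGF2/activin EpiSCs. Its rises were 1.93 and 1.46 (SE 0.10), so the same order of groups held for all 4 of these members.

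Smaller rises in both groups were measured for Mir380 (1.43 and 0.85), Mir485 (1.29 and 1.04), Mir329 (1.24 and 0.81) and Mir323 (1.20 and 1.26). Mir323 did not follow the order of the others: CHIR/XAV and FGF2/activin EpiSCs differed by -0.07 (SE 0.12), which limma did not call (adjusted p = 0.68). Some members rose in CHIR/XAV EpiSCs and were not called in FGF2/activin EpiSCs. Among these were Mir679 (0.95 and 0.26), Mir299a (0.83 and 0.28) and Mir154 (0.76 and 0.13), though Mir299a was called in FGF2/activin EpiSCs after quantile normalization (0.40). For all 3 the EpiSC groups themselves differed, by 0.69, 0.55 and 0.63.

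**Figure D2:**
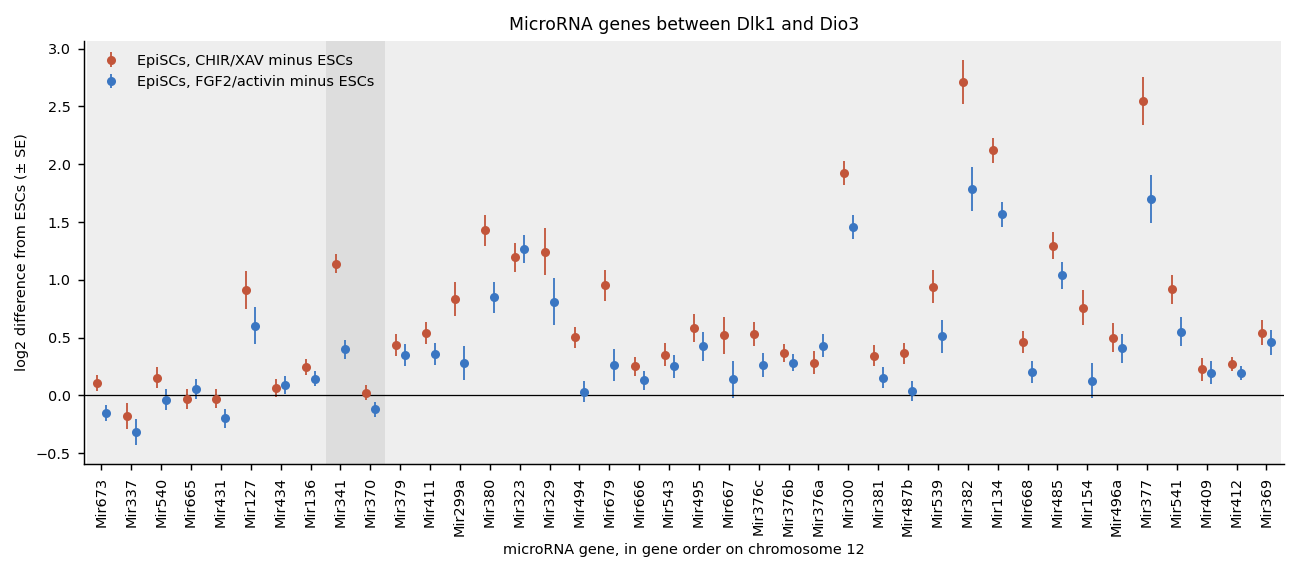
Log2 difference from ESCs (± SE) of the 40 microRNA genes between Dlk1 and Dio3, in gene order on chromosome 12, for CHIR/XAV EpiSCs (red) and FGF2/activin EpiSCs (blue); the middle band of shading marks the pair inside Rian. Differences near 0 are mostly those of the first stretch, from Mir673 to Mir136, and the highest points are Mir382 and Mir377 in the long stretch on the right.

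The interval holds 3 stretches in gene order, and they differed. In the first, from Mir673 to Mir136, 2 of 8 members were called higher in CHIR/XAV EpiSCs, near the 24.7% of all genes. They were Mir127 (0.91, SE 0.16) and Mir136 (0.24, SE 0.07). Mir127 measured 5.11, 5.23 and 5.17 in ESCs, 6.34, 6.37 and 5.54 in CHIR/XAV EpiSCs, and 5.87, 5.66 and 5.79 in FGF2/activin EpiSCs, where it rose by 0.60. Mir434, next to Mir127, stayed between 3.82 and 4.10 on all arrays and was not called in any comparison. Mir337 (-0.32) and Mir431 (-0.20), named because they were the 2 interval members called lower in FGF2/activin EpiSCs, lost that call under quantile normalization, at -0.23 and -0.06, and under median centring, at -0.26 and -0.14. They also lost it without FGF2/activin replicate 2 (-0.18 and -0.11), without ESC replicate 2 (-0.32 and -0.17) and without ESC replicate 3 (-0.23 and -0.20). Mir431 lost it without CHIR/XAV replicate 2, with trend and robust variance and in a fit of both groups alone as well, each at -0.20. Without ESC replicate 1 the 2 became 3.

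The second stretch is the pair inside Rian, a long noncoding RNA that also carries small nucleolar RNAs. Mir341 measured 7.13, 6.84 and 6.97 in ESCs, 8.06, 8.04 and 8.26 in CHIR/XAV EpiSCs, and 7.40, 7.37 and 7.37 in FGF2/activin EpiSCs. It rose by 1.14 (SE 0.08) and 0.40, with no overlap between any groups, while Mir370 differed by 0.02 and -0.12 (SE 0.07) and was not called in either. The host Rian itself rose by 2.67 and 1.76. In the third stretch, from Mir379 to Mir369, 29 of 30 members were called higher in CHIR/XAV EpiSCs, 20 in FGF2/activin EpiSCs and 14 in CHIR/XAV over FGF2/activin EpiSCs. Mir409 was the member not called in CHIR/XAV EpiSCs (0.23, SE 0.10, adjusted p = 0.079, limma), and after quantile normalization it was called too (0.27).

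The other transcripts of the domain were set beside these. Meg3 rose by 2.68 in CHIR/XAV and 1.68 in FGF2/activin EpiSCs. Dlk1, an inhibitory Notch ligand, rose by 1.47 in CHIR/XAV EpiSCs and differed by -0.07 in FGF2/activin EpiSCs, where it was not called. Rtl1, a retrotransposon-derived placental gene antisense to microRNAs of the first stretch, rose by 0.73 in CHIR/XAV EpiSCs and differed by 0.06 in the other group. Dio3, a deiodinase gene at the far end, was called in neither as deposited (0.16 and 0.25). In FGF2/activin EpiSCs it was called higher after quantile normalization (0.38) and with the replicate number as a block in the fit (0.25).

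Replicate 3 of the CHIR/XAV EpiSCs stood below its group in this interval. It was the lowest of the 3 for 30 of 40 members, beside 36.2% of all genes, and Mir382, Mir377 and Mir127 show the gap in the values above. Without that array 32 interval members were again called higher than in ESCs, and 22 in place of 16 were called higher than in FGF2/activin EpiSCs.

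**Figure D3:**
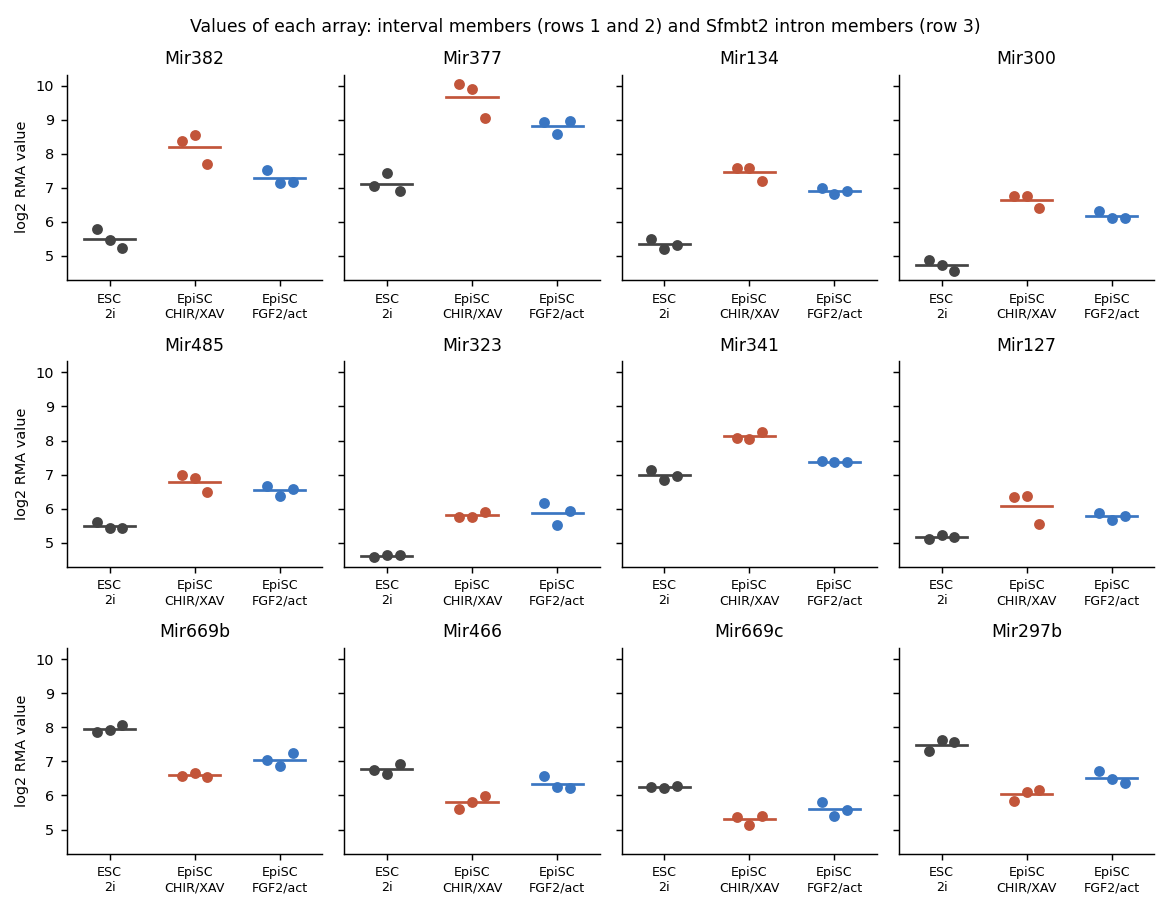
Log2 RMA value on each array (points) and group mean (lines) of 8 interval members and, in the bottom row, the 4 members in the Sfmbt2 intron; all panels share 1 vertical axis. Interval members are lowest in ESCs, with the third CHIR/XAV array below its group for most, and the Sfmbt2 intron members are highest in ESCs.

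The Sfmbt2 intron on chromosome 2 holds a large microRNA cluster of rodents, best known from the placenta, and Sfmbt2 encodes a Polycomb group protein. All 4 members measured there were called lower in both EpiSC groups, and lower in CHIR/XAV than in FGF2/activin EpiSCs. Mir297b measured 7.31, 7.62 and 7.57 in ESCs, 5.83, 6.11 and 6.17 in CHIR/XAV EpiSCs, and 6.71, 6.49 and 6.37 in FGF2/activin EpiSCs. It fell by 1.46 (SE 0.11, adjusted p = 6.5e-08, limma) and by 0.98. Mir669b measured 7.87, 7.93 and 8.06 in ESCs, 6.59, 6.66 and 6.55 in CHIR/XAV EpiSCs, and 7.03, 6.87 and 7.23 in FGF2/activin EpiSCs. For both members the 3 groups do not overlap.

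Mir669b fell by 1.35 (SE 0.09) and 0.91, Mir466 by 0.97 and 0.42, and Mir669c by 0.95 and 0.66. Between the EpiSC groups the differences ran from -0.29 for Mir669c to -0.55 for Mir466. The smallest of these ended as a call without CHIR/XAV replicate 2 (-0.20), FGF2/activin replicate 1 (-0.19) or FGF2/activin replicate 3 (-0.30). The host Sfmbt2 fell by 3.62 in CHIR/XAV EpiSCs and by 0.93 in FGF2/activin EpiSCs, so host and members had the same order of groups. The symbols of these 4 belong to microRNA families with many similar copies in the same intron, and no source used here says whether their probes separate the copies.

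The miR-106a-363 cluster on chromosome X was higher in CHIR/XAV than in FGF2/activin EpiSCs for all 5 members measured. Mir363 measured 6.16, 5.75 and 5.76 in ESCs, 6.73, 6.78 and 6.68 in CHIR/XAV EpiSCs, and 5.33, 5.74 and 5.52 in FGF2/activin EpiSCs. All CHIR/XAV arrays lie above the others. Mir363 rose by 0.84 (SE 0.12, adjusted p = 2.8e-05, limma) over ESCs in CHIR/XAV EpiSCs and fell by 0.36 in FGF2/activin EpiSCs. The fall was not called without ESC replicate 1 (-0.22) or FGF2/activin replicate 1 (-0.26).

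Over the cluster, 3 members were called higher than in ESCs in CHIR/XAV EpiSCs, Mir363, Mir20b (0.41) and Mir19b-2 (0.34), and the last of these was not called without ESC replicate 2 (0.26). The 3 members called lower in FGF2/activin EpiSCs were Mir363, Mir106a (-0.37) and Mir92-2 (-0.32). Mir106a lost that call under quantile normalization (-0.22) and without ESC replicate 1 (-0.31), ESC replicate 2 (-0.31) or FGF2/activin replicate 3 (-0.27). Mir92-2 lost it without FGF2/activin replicate 2 (-0.26). The comparison of the EpiSC groups does not involve the ESC arrays and ranged from 0.41 for Mir92-2 to 1.20 for Mir363. Xist, the X-linked RNA of X inactivation, was at 9.12 in CHIR/XAV EpiSCs and at 4.59 and 4.38 in ESCs and FGF2/activin EpiSCs. The median difference of 425 brighter X-linked genes was 0.19 and 0.24 against ESCs and -0.05 between the EpiSC groups. For brighter autosomal genes these medians were 0.04, 0.09 and -0.04. The part of Xist or of the X-linked genes in this result was not tested.

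The related miR-17-92 cluster on chromosome 14 went the other way in CHIR/XAV EpiSCs, with 3 of 5 members called lower and 0 higher. Mir19a measured 7.35, 7.39 and 7.34 in ESCs, 7.21, 7.05 and 6.74 in CHIR/XAV EpiSCs, and 6.68, 6.57 and 6.65 in FGF2/activin EpiSCs. It fell by 0.36 (SE 0.10) and by 0.73 (adjusted p = 1.9e-05, limma), with no overlap between groups. Mir18 measured 7.85, 7.54 and 7.22 in ESCs, 7.16, 6.91 and 6.27 in CHIR/XAV EpiSCs, and 7.34, 7.12 and 6.63 in FGF2/activin EpiSCs, and the third array was lowest in each group.

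Mir18 fell by 0.76 (SE 0.22) and Mir17 by 0.44 (SE 0.15) in CHIR/XAV EpiSCs. Mir18 was not called without CHIR/XAV replicate 3 (-0.51) or ESC replicate 1 (-0.60), and Mir17 not without CHIR/XAV replicate 3 (-0.30), ESC replicate 1 (-0.41) or ESC replicate 2 (-0.36). With trend and robust variance the Mir18 call also ended, at the same -0.76. In FGF2/activin EpiSCs Mir18 (-0.50, adjusted p = 0.059, limma) and Mir17 (-0.22) were not called, and Mir18 was called lower after quantile normalization (-0.63). With the replicate number as a block in the fit both were called lower, at the same differences. Mir20a, Mir19b-1 and the host transcript Mir17hg were not called as deposited. Mir20a was called higher than ESCs in FGF2/activin EpiSCs under median centring (0.27) and quantile normalization (0.33), and lower in CHIR/XAV than in FGF2/activin EpiSCs under the latter (-0.28). Mir19b-1 and Mir19b-2 of the X-linked cluster give the same mature miR-19b-3p, and differed from ESCs by -0.20 and 0.34 in CHIR/XAV EpiSCs.

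The third cluster, miR-106b-25, lies in an intron of Mcm7, a subunit of the replicative helicase. Mir25 measured 6.45, 6.34 and 6.40 in ESCs, 6.26, 6.12 and 6.02 in CHIR/XAV EpiSCs, and 5.97, 5.55 and 5.85 in FGF2/activin EpiSCs, so the groups do not overlap. It fell by 0.61 (SE 0.10) in FGF2/activin EpiSCs. The fall by 0.27 in CHIR/XAV EpiSCs ended as a call when any 1 of the 6 arrays compared was left out other than CHIR/XAV replicate 1, at -0.21 to -0.29, and under median centring (-0.24). Mir106b fell by 0.29 and 0.25, the latter not called under quantile normalization (-0.10), and Mir93 was called in no comparison. Mcm7 differed by -0.03 from ESCs in CHIR/XAV EpiSCs and fell by 0.35 in FGF2/activin EpiSCs.

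**Figure D4:**
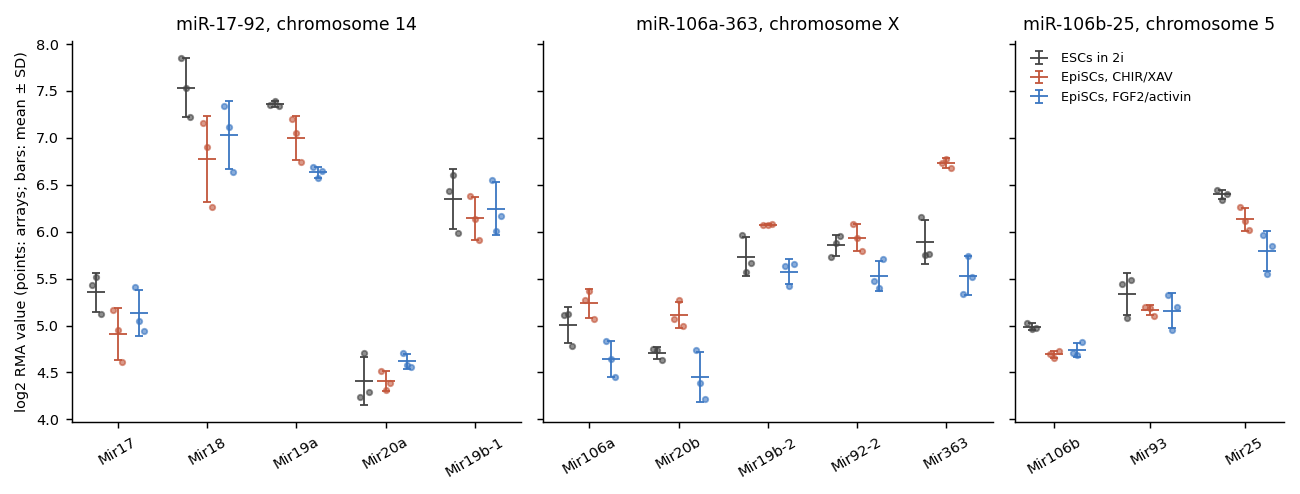
Log2 RMA values of the members of the 3 miR-17 type clusters in ESCs (grey), CHIR/XAV EpiSCs (red) and FGF2/activin EpiSCs (blue); points are arrays and bars are mean ± SD (n = 3). On chromosome X the red points lie above the blue ones for all 5 genes, most clearly for Mir363, whereas Mir19a and Mir25 are highest in ESCs.

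Most let-7 genes, which restrain growth and accompany differentiation, were not called. Of 10 measured members, Mir98 fell by 0.41 in CHIR/XAV and 0.42 in FGF2/activin EpiSCs (SE 0.10), and Mirlet7i fell by 0.48 in FGF2/activin EpiSCs. Mir98 measured 5.91, 5.66 and 5.97 in ESCs, 5.57, 5.45 and 5.29 in CHIR/XAV EpiSCs, and 5.57, 5.36 and 5.34 in FGF2/activin EpiSCs, with no overlap between ESCs and either EpiSC group. The other 8 members differed from ESCs by -0.19 to 0.23 and were called in neither EpiSC group. After quantile normalization 3 let-7 members were called higher in FGF2/activin EpiSCs, so the family has no direction that holds under each scaling.

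Members of the miR-200 family, which keep the epithelial state by targeting Zeb factors, did not move together. Mir200a (-0.34) and Mir200c (-0.39) fell in FGF2/activin EpiSCs and Mir200b rose (0.28). The rise of Mir200b was not called without ESC replicate 3 (0.23) or FGF2/activin replicate 3 (0.18). Of 20 measured microRNAs of differentiated tissues, 3 were called lower and 0 higher in CHIR/XAV EpiSCs, and 4 lower and 0 higher in FGF2/activin EpiSCs. All but 1 of the 20 are among the dimmest 40% of genes, of which 14.8% and 40.9% were lower, so these counts do not exceed the background. After quantile normalization the latter became 2 lower and 3 higher. Mir9-1, a neural microRNA gene, fell by 0.54 (SE 0.09) in FGF2/activin EpiSCs, from 5.80, 5.88 and 6.03 in ESCs to 5.50, 5.23 and 5.36. Mir155, an immune microRNA gene, fell by 0.55 and 0.65. Of the p53-linked genes Mir34a, Mir34b and Mir34c, the last was called, lower in CHIR/XAV EpiSCs (-0.28), and it lost the call without CHIR/XAV replicate 1 (-0.20), without ESC replicate 2 (-0.25) and under quantile normalization (-0.21). Mir296, reported like Mir134 to target pluripotency factor messages, fell by 0.26 in CHIR/XAV EpiSCs while Mir134 rose.

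Among members that stand alone, the largest falls were those of Mir680-2 and Mir680-1. Mir680-2, on chromosome X, measured 7.37, 7.33 and 7.54 in ESCs, 5.72, 5.73 and 5.78 in CHIR/XAV EpiSCs, and 6.25, 6.02 and 5.86 in FGF2/activin EpiSCs. It fell by 1.67 (SE 0.09, adjusted p = 1.8e-09, limma) and by 1.37. Mir680-1, on chromosome 6, fell by 1.30 (SE 0.11) and 0.94, and Mir680-3, on chromosome 12, by 0.36 and 0.58. RefSeq gives all 3 genes the same mature strand, shown because a shared sequence limits what separate probes can tell.
miR-680: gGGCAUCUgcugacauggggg
No source used here says whether the probes separate these copies.

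Mir1839, inside 2900076A07Rik, measured 5.95, 5.65 and 5.41 in ESCs, 4.62, 4.42 and 4.74 in CHIR/XAV EpiSCs, and 5.44, 5.37 and 5.32 in FGF2/activin EpiSCs. It fell by 1.08 (SE 0.12) in CHIR/XAV EpiSCs, which also lay below FGF2/activin EpiSCs by 0.79. Mir15a, in the Dleu2 transcript, fell by 0.85 and 0.51, whereas its neighbour Mir16-1 differed by -0.05 and -0.16 and was not called. Mir6516, in Snhg20, fell by 0.65 and 0.46, and Mir598, in Xkr6, by 0.47 and 0.84.

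FGF2/activin EpiSCs had the lower values for several members. Mir338, in the Aatk kinase gene, fell by 0.83 there and by 0.46 in CHIR/XAV EpiSCs. Mir181c fell by 0.76 and 0.43 and its cluster neighbour Mir181d by 0.60 and 0.52, in the same order of groups. Mir139 measured 7.51, 7.43 and 7.42 in ESCs, 7.53, 7.45 and 7.11 in CHIR/XAV EpiSCs, and 6.69, 6.76 and 6.91 in FGF2/activin EpiSCs. It fell by 0.66 in FGF2/activin EpiSCs and differed by -0.09 in CHIR/XAV EpiSCs, and the EpiSC groups themselves differed by 0.58 (adjusted p = 0.00031, limma).

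Outside the interval few members rose. Mir29a, of a family that targets collagen and DNA methyltransferase messages, measured 4.55, 4.71 and 4.95 in ESCs, 5.18, 5.08 and 5.28 in CHIR/XAV EpiSCs, and 4.90, 4.96 and 5.21 in FGF2/activin EpiSCs. It rose by 0.44 (SE 0.11) and 0.29, and the FGF2/activin values overlap those of ESCs. Mir421, in Ftx, rose by 0.31 and 0.30, and Mir202 by 0.19 and 0.24. Mir301, in Ska2, measured 4.87, 5.04 and 4.60 in ESCs, 4.61, 4.75 and 4.71 in CHIR/XAV EpiSCs, and 5.23, 5.16 and 5.16 in FGF2/activin EpiSCs. It was highest in FGF2/activin EpiSCs, by 0.35 over ESCs and by 0.49 over CHIR/XAV EpiSCs (adjusted p = 0.00082, limma). Mir29a, Mir202 and Mir301 have means among the dimmest 40% of genes.

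Members inside a host gene could be set beside it for 106 members in 85 hosts, and a large rise of the host often had no called rise in the member. Where a host was at least 2-fold lower in CHIR/XAV EpiSCs (10 members in 6 hosts), 7 members were called lower and 3 were not called, beside 22.1% of all genes and 14.8% of dim genes called lower. Of the 7, 4 lie in the Sfmbt2 intron, and Mir130b (-0.19) and Mir301b (-0.18) in 2610318N02Rik lost the call under quantile normalization, as did Mir301b without ESC replicate 2 (-0.22). Where a host was at least 2-fold higher there (7 members in 5 hosts), 1 member was called higher, Mir341, and 6 were not called. The shares called higher were 24.7% of all genes and 7.32% of dim genes. The 6 members in 5 hosts lower in FGF2/activin EpiSCs were all called lower there, beside 33.5% of all genes and 40.9% of dim genes, and Mir301b lost the call under quantile normalization (-0.18). Of 16 members in 9 higher hosts there, 1 was called higher, 10 were not called and 5 were called lower. In that comparison 27.8% of all genes and 5.79% of dim genes were called higher, and 33.5% and 40.9% lower.

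Mir107 followed its host Pank1, a pantothenate kinase gene: it measured 5.61, 5.79 and 5.76 in ESCs, 5.24, 5.18 and 5.02 in CHIR/XAV EpiSCs, and 4.94 ± 0.13 (SD, n = 3) in FGF2/activin EpiSCs. It fell by 0.57 and 0.78, and Pank1 by 1.83 and 1.43. Mir653 and Mir489 did not follow Calcr, the calcitonin receptor gene, which rose by 3.78 and 3.23. Mir653 differed by 0.19 and 0.12 and Mir489 by -0.01 and -0.03, with none of these called. Mir28a differed by -0.11 and -0.12 (SE 0.07), was not called, and lies in Lpp, a cell adhesion gene that rose by 2.08 and 4.18. Mir218-1 fell by 0.44 in FGF2/activin EpiSCs, where its host Slit2 fell by 3.11, while Mir218-2 fell by 0.24 in a host, Slit3, that rose by 1.88. Mir483 fell by 0.52 in FGF2/activin EpiSCs inside Igf2, a growth factor gene that rose by 1.69. Mir107, Mir653, Mir489, Mir28a, Mir218-1 and Mir218-2 have means among the dimmest 40% of genes, and Mir483 lies above them.

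**Figure D5:**
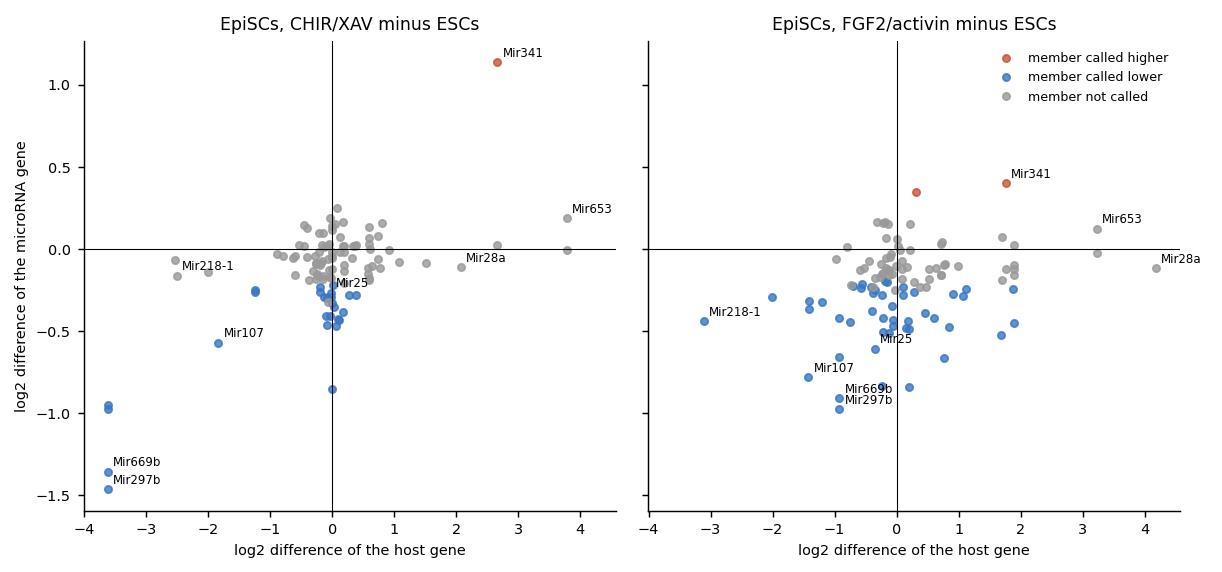
Log2 difference of each microRNA gene (vertical axis) against that of its measured host gene (horizontal axis), 106 members, for CHIR/XAV EpiSCs on the left and FGF2/activin EpiSCs on the right; colour gives the member's call. Mir341 lies above 0 on both axes and the Sfmbt2 intron members below 0 on both, and Mir653 and Mir28a lie near 0 at host differences above 2.

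Genes that make or use microRNAs were measured for 27 of 28 listed. In CHIR/XAV EpiSCs 9 were called higher and 6 lower than in ESCs, and in FGF2/activin EpiSCs 10 higher and 8 lower, beside the shares of all genes given above. The processing enzymes were slightly lower: Drosha fell by 0.39 and 0.35 and Dicer1 by 0.36 and 0.29 (SE 0.08). Dgcr8 differed by -0.17 and -0.02 and was not called as deposited, and in CHIR/XAV EpiSCs it was called lower after quantile normalization (-0.20).

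Of 6 listed genes linked to the Lin28 and let-7 axis, 4 rose in both groups, beside 24.7% and 27.8% of all genes called higher in the 2 comparisons. Khsrp, a listed gene not counted among the 6, also rose (0.36 and 0.28). Lin28b, which blocks let-7 processing, rose by 0.85 and 1.46, and its relative Lin28a by 0.87 and 0.59. Tut4 (0.39 and 0.53) and Tut7 (0.45 and 0.90), enzymes that add uridine to let-7 precursors, rose as well. Dis3l2, a nuclease that degrades uridylated let-7 precursors (-0.08 and 0.16), and Trim71, a let-7 target (-0.19 and -0.19), were called in neither as deposited. After quantile normalization Trim71 was called lower in both EpiSC groups (-0.22 and -0.29). Among cofactors of Dicer, Tarbp2 fell by 0.84 in CHIR/XAV EpiSCs and differed by 0.06 in FGF2/activin EpiSCs, and Prkra rose by 0.66 and 1.10. Ago1, an Argonaute gene, fell by 0.71 and 0.44. Mov10, an RNA helicase that binds Argonaute proteins, measured 10.20, 10.23 and 10.20 in ESCs, 7.65, 7.60 and 7.80 in CHIR/XAV EpiSCs, and 7.65, 7.79 and 7.91 in FGF2/activin EpiSCs. It fell by 2.52 in CHIR/XAV EpiSCs (adjusted p = 3.8e-12, limma) and fell by 2.42 in FGF2/activin EpiSCs (adjusted p = 4.2e-12, limma).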

How the data were processed

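RNA of 9 samples of mouse stem cells, in 3 groups of 3 named by the sample titles, was hybridised to 1-colour Affymetrix arrays. Each deposited number is a log2 summary of 1 probe set, which the authors made with RMA in Partek per the submitters' processing notes, with versions, genome build and any arrays normalized together not given in the sources used here. Probe sets with 1 gene symbol (21789) were kept, those with several (1621) or none (11989) were left out, and the brightest by mean over the 9 arrays stood for a gene. All 295 members matched a RefSeq table (GRCm38.p6), used for names, gene order, strand and hosts, with no coordinates printed. Clusters are microRNA genes at most 10 kb apart on the same strand where RefSeq gives one (253 of 291), otherwise by position. A host gene spans the microRNA gene, on its strand where RefSeq gives one here.

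A single limma fit (version 3.58.1 under R 4.3.3, with lmFit, contrasts.fit and eBayes) over all 9 arrays gave the differences, with no filter on dim genes and Benjamini-Hochberg adjustment over 19938 genes at 0.05. SE is the moderated standard error, and the number of arrays limits precision. The same fit was also run on simulated data with known changes, whose levels and spread came from these arrays. No detection calls were used here.

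Members and lists were chosen with earlier results of these data known. Named genes are the measured members of lists of well known microRNAs, of the Dlk1-Dio3 interval and of the Sfmbt2 intron, the 8 largest called rises and falls of each comparison whose groups do not overlap, and the clusters holding at least 2 of those; other names are host genes or were chosen after their values were seen. Replicate numbers were checked for pairing by correlating same-numbered arrays over all genes (-0.07 to 0.24). This check cannot show whether the samples were paired. Alternatives were the mean of all probe sets, leaving out the dimmest 40% of genes, median centring, quantile normalization, fits of 2 groups alone, a trended robust variance, a replicate block and leaving out each array.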

Additional observations from a re-analysis of the deposited data

Results flagged for a closer look

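Mir363, of the X-linked miR-106a-363 cluster, stands out because its differences from ESCs had opposite directions in the EpiSC groups, 0.84 in CHIR/XAV EpiSCs and -0.36 in FGF2/activin EpiSCs. The difference between the groups was tested directly and was 1.20 (SE 0.12, adjusted p = 1.3e-06, limma), with all 3 CHIR/XAV arrays above all 3 FGF2/activin arrays. Xist was higher in the same arrays, at 9.12 against 4.38, and its part in the result was not tested. With 3 arrays per group, no single array could be tested as standing apart.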

How the results depend on the processing

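No called difference of the 125 named members changed sign under the alternatives run, and 115 of their 162 calls held under all of them. Without the dimmest 40% of genes fewer members were tested (95), and the counts became 21 higher and 35 lower for CHIR/XAV EpiSCs against ESCs, 14 and 53 for FGF2/activin EpiSCs against ESCs, and 32 higher for CHIR/XAV over FGF2/activin EpiSCs. Quantile normalization gave 45 higher and 70 lower for FGF2/activin EpiSCs against ESCs. Leaving out each array gave 35 to 40 higher and 44 to 56 lower in the first comparison, 22 to 30 and 79 to 114 in the second, and 35 to 71 and 7 to 13 in the third. Replicate numbers are shared by the groups, and over all genes same-numbered arrays deviated together little (correlations from -0.07 to 0.24), which does not settle whether they were paired. With the replicate block the counts were 39 and 56, 27 and 113, and 55 and 14. In the miR-17-92 cluster the block called Mir18 (-0.50), Mir17 (-0.22) and Mir17hg (-0.32) lower in FGF2/activin EpiSCs than in ESCs, and Mir18 lower in CHIR/XAV than in FGF2/activin EpiSCs (-0.26), while Mir431 (-0.20) lost its call. The dim level of most members limits what their calls can show, and detection above background was not used here.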

Other observations

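Probe sets that name several genes lie outside the members, and their values, with no test, cannot be assigned to 1 of the genes named. The largest group lies in the Sfmbt2 intron. The value shared by 13 probe sets for copies of Mir669a and Mir669p was 9.06 ± 0.15 in ESCs, 7.02 ± 0.08 in CHIR/XAV EpiSCs and 8.24 ± 0.22 in FGF2/activin EpiSCs (SD, n = 3). That shared by 9 probe sets for copies of Mir467a was 7.16 ± 0.10, 5.58 ± 0.07 and 6.45 ± 0.11. No array of 1 group overlapped with another group in either, and the order of groups was that of the 4 members of this intron.

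In the Dlk1-Dio3 interval the probe set for Mirg and Mir410 was at 6.38 ± 0.18 in ESCs, 9.19 ± 0.09 in CHIR/XAV EpiSCs and 8.23 ± 0.10 in FGF2/activin EpiSCs (SD, n = 3). The one for Mir433 and 6430411K18Rik was at 5.18 ± 0.04, 6.15 ± 0.34 and 5.49 ± 0.05. A pair of probe sets stood highest in FGF2/activin EpiSCs and near each other in the remaining groups. Mir22hg with Mir22 was at 5.76 ± 0.10 in ESCs, 5.66 ± 0.14 in CHIR/XAV EpiSCs and 6.58 ± 0.15 in FGF2/activin EpiSCs (SD, n = 3). Mir675, a microRNA gene of the imprinted H19 transcript, shares a probe set with Supt6, which was at 5.09 ± 0.02, 5.08 ± 0.06 and 6.19 ± 0.18. Mir1291 with Snora34 was highest in CHIR/XAV EpiSCs, at 9.72 ± 0.15, against 9.01 ± 0.20 in ESCs and 8.85 ± 0.21 in FGF2/activin EpiSCs. The probe set of Mir92-1 with Mir17hg was at 6.89 ± 0.37, 6.41 ± 0.35 and 6.32 ± 0.25 in the same order as at first.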
